A study of Macaca fascicularis with 2 samples.

Results

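A set of 7 genes known for the step from undifferentiated to differentiating spermatogonia and into meiosis, KIT, STRA8, DMRT1, DMRTB1, SOHLH1, SOHLH2 and ESX1, was followed across testicular cell types. They were taken by symbol, and all 7 were found among the 28845 features of the count tables. RNA of single testis cells from the cynomolgus monkey, Macaca fascicularis, was counted by droplet sequencing of transcript 3' ends. The comparison asks how these genes stood in testis placed in the abdomen, a surgical model of cryptorchidism on one side (UAT), and in contralateral testis kept in the scrotum (CST). There was 1 library for each position. The number of animals, their age and the time since surgery were not given in the sources used here, and no treatment or genotype was named for either library.

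In the seminiferous tubule, stem-like spermatogonia give rise to differentiating spermatogonia, which divide by mitosis and then enter meiosis as spermatocytes. In mouse, retinoic acid drives this step, and spermatogonia gain the receptor KIT and later the meiotic gatekeeper STRA8. Transcription factors of the DMRT and SOHLH families set the timing of the switch in mouse.

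The UAT library held 12564 barcodes and 111047299 unique molecular identifiers (UMIs, each standing for 1 captured RNA molecule), and the CST library 15952 barcodes and 197225937 UMIs. After filters and doublet removal, 11131 UAT and 13201 CST cells were clustered together, without the 7 genes, and classes were called X-like from marker lists that also leave the 7 genes out. Spermatogonia-like cells were 294 in UAT (2.64% of cells) and 903 in CST (6.84%), and they carried MAGEA4 at 175 and 196 counts per 1000000 UMIs (CPM), DDX4 at 280 and 234 CPM and UTF1 at 322 and 220 CPM. MAGEA4 and UTF1 are on the marker lists that named this class, and DDX4 is not. The spermatogonia-like cells split into an undifferentiated cluster (285 UAT and 564 CST cells) and a differentiating cluster (9 UAT and 339 CST cells). This split depended on the clustering. Only 50 barcodes occurred in both libraries, 5 of them in spermatogonia-like cells of either library. RNA of other cells differed between the libraries. The 11 elongating spermatid markers summed to 12.7 CPM in UAT and 3338 CPM in CST spermatogonia-like cells, and the 10 stromal markers to 686 and 66.0 CPM. The 12 Sertoli markers stood at 253 and 237 CPM. The part of this RNA in the values below was not tested beyond the estimate of free RNA given with them.

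Over all spermatogonia-like cells, 6 of the 7 genes were at least 1.5-fold lower in UAT, and 0 were at least 1.5-fold higher. Across the 8576 features at 20 CPM or more in either library, 20.6% were lower and 15.7% higher by the same fold. STRA8 is among the 6 but was itself under that mark, at 3.17 and 19.2 CPM. The median log2 ratio, with 10 CPM added to both levels, was -1.63 over the 7 genes and -0.05 over all these features. All 7 counting intervals of the ratio lay below 1 and 0 above it, against 38.9% and 32.6% of the features. With 1 library per position there is no replicate check and no test: the intervals (95%, exact) cover counting error only, and cells of a library are not replicates. Depth differed by state. Median UMIs per cell were 8371 in UAT and 7389 in CST spermatogonia-like cells, but 7652 and 2770 in the undifferentiated cluster. Cells were therefore also thinned at random to 2000 UMIs each. This left 224 UAT cells (70 left out) and 646 CST cells (257 left out). Of the summed UMIs, 160956 of 4422243 in UAT and 4577909 of 8550820 in CST came from the differentiating cluster, and the sums over all cells weigh that cluster accordingly.

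KIT, the receptor for stem cell factor and known on spermatogonia that have begun to differentiate, gave 24.6 CPM in UAT against 97.1 CPM in CST, a ratio of 0.254 (0.206 to 0.310). In thinned cells a KIT UMI was seen in 4.02% of UAT and 16.9% of CST cells, and without thinning in 23.8% and 42.4%. KIT was low in UAT on both measures. STRA8, which is required for meiotic initiation in mouse, gave 14 UMIs in UAT and 164 in CST, or 3.17 and 19.2 CPM (ratio 0.165, 0.0883 to 0.285). Of the 14 UAT molecules, 9 lay in the 9 cells of the differentiating cluster. A STRA8 UMI was seen in 9 of 294 unthinned UAT cells (3.06%, 1.41 to 5.73) and in 7.31% of CST cells (5.70 to 9.21). After thinning, no UAT cell held one, which for 224 cells allows a share of up to 1.34% with a UMI at that depth, and 23 of 646 CST cells (3.56%) did. The interval of the ratio of thinned means ran from 0 to 0.391.

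DMRT1, a DM-domain transcription factor that in mouse holds spermatogonia back from meiosis, stood at 276 CPM in UAT and 516 CPM in CST (ratio 0.534, 0.501 to 0.569). It was seen in 37.1% of thinned UAT and 52.5% of thinned CST cells, although the unthinned shares, 63.3% and 65.1%, were near each other. DMRTB1, a related factor that in mouse helps to end the spermatogonial programme at meiotic entry, stood at 74.4 and 408 CPM (ratio 0.182, 0.162 to 0.204). Its thinned shares were 17.9% in UAT and 44.9% in CST, and its unthinned shares 44.6% and 61.5%. DMRT1 was thus lower in UAT by less than 2-fold and DMRTB1 by over 5-fold in these sums.

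SOHLH1 and SOHLH2, basic helix-loop-helix factors needed for spermatogonial differentiation in mouse, had unlike ratios over all spermatogonia-like cells. SOHLH1 was at 180 CPM in UAT and 243 CPM in CST, a ratio of 0.739 (0.680 to 0.803), and was the member that missed the 1.5-fold mark. It was seen in 29.0% of thinned UAT and 37.3% of thinned CST cells, against 63.3% in each library before thinning. SOHLH2 was at 26.9 and 108 CPM (ratio 0.249, 0.204 to 0.301). Its thinned shares were 6.70% and 17.0%, and its unthinned shares 24.8% and 42.3%. Within the undifferentiated cluster the ratios of SOHLH1 and SOHLH2 were nearer each other, at 0.522 and 0.441. The SOHLH2 feature sits next to CCDC169 in the feature list, and in human annotation a readthrough transcript joins both genes, so SOHLH2 values are uncertain where reads could belong to either. ESX1, an X-linked homeobox gene of testis and placenta, stood at 49.3 and 299 CPM (ratio 0.165, 0.143 to 0.190). An ESX1 UMI was seen in 8.48% of thinned UAT and 36.5% of thinned CST cells, and in 34.7% and 54.7% without thinning.

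Stromal-like cells, which should lack these genes, show how much free RNA adds to such shares. Their median depth was 7375 UMIs in UAT and 4323 in CST. After thinning, DMRTB1 was seen in 0.0847% of UAT and 1.15% of CST stromal-like cells, and the other 6 genes in 0% to 0.190% in UAT and 0% to 0.192% in CST. The shares in CST spermatogonia-like cells were above this background for all 7 genes, and in UAT for all but STRA8. An estimate from stromal markers put free RNA at 6.20% of UMIs in UAT and 3.97% in CST spermatogonia-like cells. That profile would supply 3.29 CPM of DMRTB1 in CST and less of each other member.

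**Figure D1:**
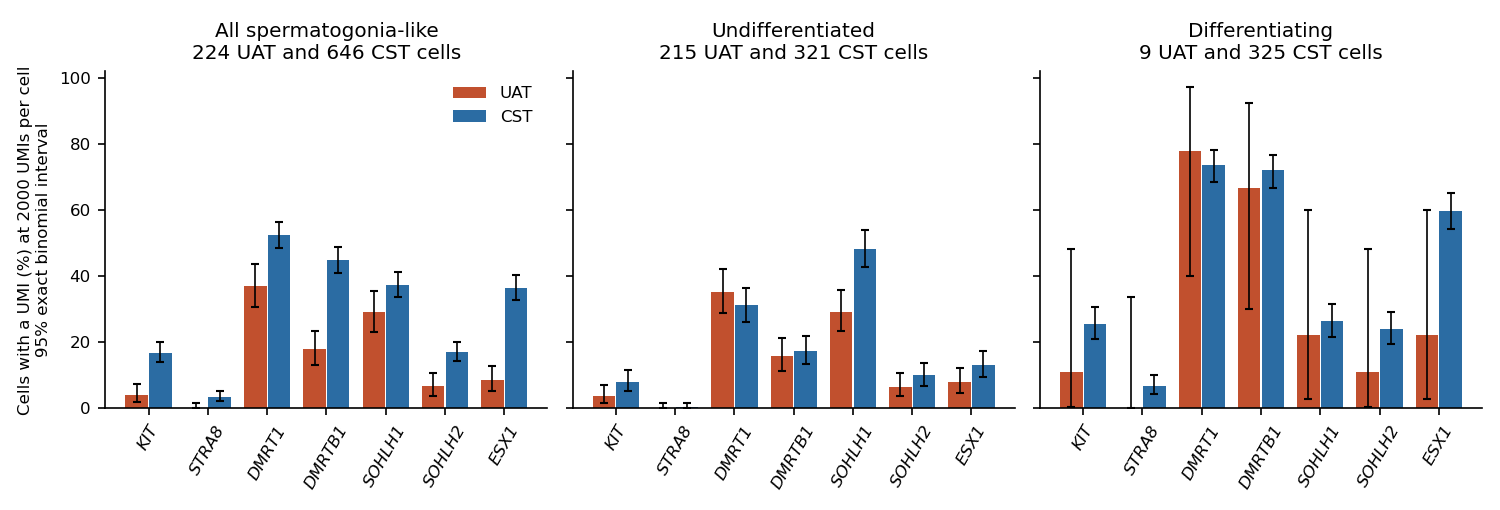
Share of cells with at least 1 UMI (percent) of each gene after thinning every cell to 2000 UMIs, in UAT and CST, with exact 95% binomial intervals that cover counting error only. Over all spermatogonia-like cells all 7 bars are lower in UAT, whereas within the undifferentiated cluster DMRT1 stands at 35.3% in UAT and 31.2% in CST; the UAT differentiating bars rest on 9 cells.

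Within the undifferentiated cluster DMRT1 had an interval that held 1, and 5 other genes were lower in UAT by theirs. DMRT1 was at 257 CPM in UAT and 249 CPM in CST, a ratio of 1.03 (0.945 to 1.13). SOHLH1 was at 183 and 350 CPM (0.522, 0.477 to 0.570). The order of these ratios was therefore the opposite of that in the whole pool, where DMRT1 had the lower one. KIT stood at 23.2 and 45.3 CPM (0.513, 0.397 to 0.659) and SOHLH2 at 24.6 and 55.9 CPM (0.441, 0.346 to 0.559). DMRTB1 was at 58.9 and 104 CPM (0.564, 0.480 to 0.661) and ESX1 at 42.2 and 74.8 CPM (0.565, 0.467 to 0.682). STRA8 was scarce in both, with 5 UMIs in UAT and 10 in CST (0.466, 0.125 to 1.497). By fold, 6 of 7 genes were at least 1.5-fold lower and 0 higher, against 11.7% lower and 7.3% higher of 8385 features. STRA8 is among these 6 through its 10 CST UMIs, but at 1.17 and 2.52 CPM it was under the 20 CPM mark set for the features. By interval, 5 lay below 1, 2 held it and 0 lay above it, against 27.4% of features below and 24.2% above. The median log2 ratio was -0.73, and -0.01 over the features.

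Thinning, which also left out the shallow cells, brought the ratios of KIT, DMRTB1 and SOHLH2 nearer to 1 and left those of SOHLH1 and ESX1 about where they were. In 215 UAT cells (70 left out) and 321 CST cells (243 left out) of the undifferentiated cluster, the ratio of mean UMIs per thinned cell was 0.519 (0.398 to 0.670) for SOHLH1. For ESX1 it was 0.553 (0.314 to 0.939). The thinned ratios of KIT (0.640, 0.296 to 1.30), DMRTB1 (0.799, 0.524 to 1.20), SOHLH2 (0.659, 0.333 to 1.24) and DMRT1 (1.13, 0.879 to 1.46) had intervals that held 1. With no cell left out and every cell weighed alike, the ratio of mean CPM per cell was 0.399 for DMRTB1 and 0.254 for ESX1, further from 1 than the sums. It was 0.640 for KIT, 0.476 for SOHLH2, 0.637 for SOHLH1 and 0.922 for DMRT1. The part of the cells left out in the thinned ratios was not tested. SOHLH1 was seen in 29.3% of thinned UAT cells (23.3 to 35.9) and 48.3% of thinned CST cells (42.7 to 53.9). The unthinned shares were 63.5% and 56.0%, in the opposite order, in cells of unequal depth. At 2 UMIs or more per thinned cell, SOHLH1 was found in 7.91% of UAT and 18.4% of CST cells, while DMRT1 was found in 11.2% of either. Elongating spermatid markers summed to 13.1 CPM in UAT and 4176 CPM in CST in this cluster, and stromal markers to 698 and 103 CPM.

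At a finer resolution, clustered anew, undifferentiated cells formed a deep cluster led by UTF1 (165 UAT and 243 CST cells) and a shallow one led by WBSCR22 (119 and 345 cells), which together held 284 UAT and 588 CST cells and so are not a division of the cluster described above. In the UTF1-led cluster SOHLH1 was again well under its CST level, at 189 and 378 CPM (0.4997, 0.455 to 0.549), and DMRT1 was higher in UAT, at 252 and 213 CPM (1.18, 1.07 to 1.31). DMRTB1 (0.726, 0.5996 to 0.877) and ESX1 (0.757, 0.607 to 0.943) were lower in UAT by less than 1.5-fold there. KIT (0.528, 0.392 to 0.706) and SOHLH2 (0.533, 0.406 to 0.697) were lower by more than that, and STRA8 had 5 UAT and 9 CST UMIs (0.449, 0.118 to 1.49). In the WBSCR22-led cluster DMRT1 went the other way and was lower in UAT, at 293 and 382 CPM (0.767, 0.619 to 0.944). DMRTB1 and ESX1 also had lower ratios there, 0.385 (0.265 to 0.545) and 0.282 (0.162 to 0.462). SOHLH1 had a ratio of 0.532 (0.389 to 0.717) in it, SOHLH2 of 0.308 (0.153 to 0.566) and KIT of 0.679 (0.390 to 1.14). The ratio of SOHLH1 thus moved little between both clusters, that of DMRT1 lay on opposite sides of 1, and those of DMRTB1 and ESX1 moved more than that of SOHLH1. State markers differed between the libraries in both clusters. In the WBSCR22-led cluster the 12 differentiating markers summed to 2069 CPM in UAT and 3403 CPM in CST, and the 15 undifferentiated markers to 701 and 551 CPM. In the UTF1-led cluster these sums were 2035 and 1770 CPM, and 1467 and 2002 CPM. Median depth was 24019 UMIs in UAT and 12253 in CST in the UTF1-led cluster, and 1750 and 1237 in the WBSCR22-led one.

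**Figure D2:**
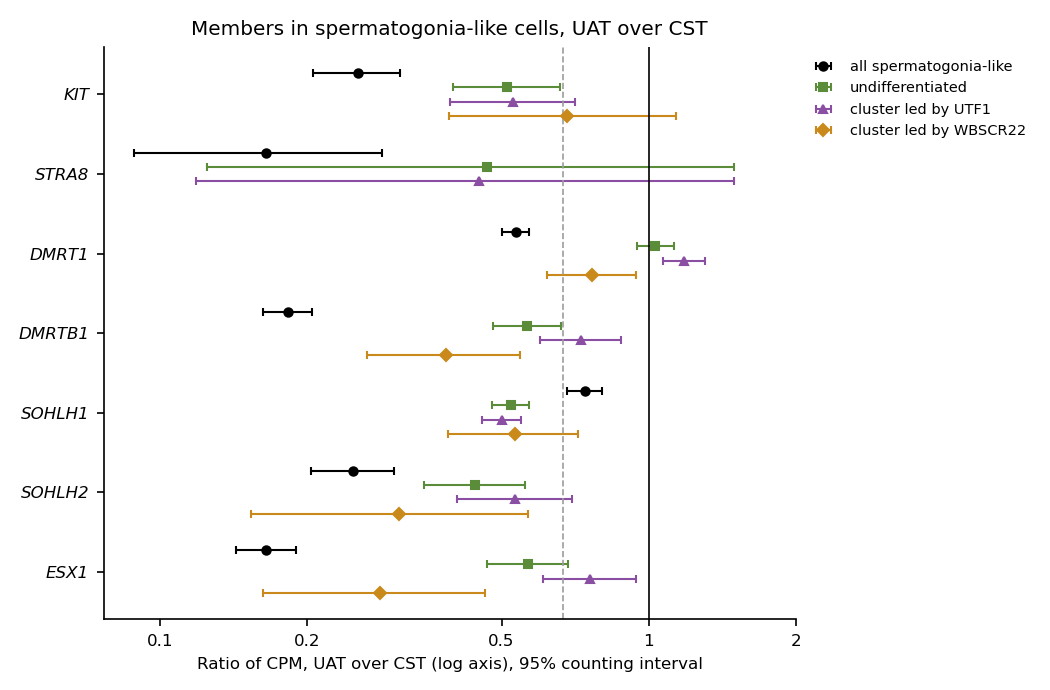
Ratio of summed CPM, UAT over CST, on a log axis for the 7 genes in all spermatogonia-like cells, the undifferentiated cluster and 2 clusters of a finer clustering, with 95% counting intervals; the solid line marks 1 and the dashed line 1.5-fold lower. DMRT1 moves from 0.534 in all cells to 1.03 in the undifferentiated cluster, while SOHLH1 moves from 0.739 to 0.522; DMRT1 is at 1.18 in the UTF1-led and 0.767 in the WBSCR22-led cluster. STRA8 in the WBSCR22-led cluster is not drawn, since UAT had 0 UMIs and CST 1.

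Thinned cells were also set side by side in ranges of the share of undifferentiated markers among all state marker UMIs, cut at 0 and 0.286 (CST tertiles). The highest range held 130 UAT and 212 CST cells. There the ratio was 1.23 for DMRT1 (0.856 to 1.77), 1.07 for DMRTB1 (0.587 to 1.91) and 0.526 for SOHLH1 (0.388 to 0.706). Intervals held 1 for ESX1 (0.731, 0.349 to 1.45), KIT (0.408, 0.0992 to 1.26) and SOHLH2 (0.466, 0.154 to 1.19). In the middle range, with 51 UAT and 156 CST cells, DMRT1 had a ratio of 0.643 (0.448 to 0.904), DMRTB1 of 0.321 (0.182 to 0.530), ESX1 of 0.156 (0.0559 to 0.349) and KIT of 0.248 (0.0489 to 0.783). SOHLH1 (0.777, 0.419 to 1.36) and SOHLH2 (0.382, 0.0982 to 1.08) had intervals that held 1 there. In the lowest range, with 43 UAT and 277 CST cells, DMRTB1 had a ratio of 0.172 (0.0778 to 0.330), ESX1 of 0.118 (0.0319 to 0.307) and DMRT1 of 0.475 (0.311 to 0.697). SOHLH1 stood at 0.518 (0.202 to 1.11), SOHLH2 at 0.515 (0.183 to 1.18) and KIT at 0.537 (0.191 to 1.23). STRA8 had 0 UAT UMIs in each range. These are ranges of a score and not cell types, and 72 UAT and 316 CST cells lay within 0.05 of a cut. The lower ranges were not alike in state. Of the differentiating cluster, the lowest range held 4 UAT and 224 CST cells, the middle 5 and 97 and the highest 0 and 4. The part of this mix in the ratios was not tested.

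In the differentiating cluster, with 9 UAT and 339 CST cells, the genes did not all stand to one side. DMRT1 (125 UMIs) and DMRTB1 (78 UMIs) were each found in all 9, at 777 and 485 CPM, against 748 and 671 CPM in CST. KIT gave 10 UMIs in 5 cells, at 62.1 CPM against 142 CPM in CST, and ESX1 38 UMIs in 7 cells, at 236 CPM against 493 CPM. SOHLH1 was at 112 and 151 CPM (0.740, 0.436 to 1.18) and SOHLH2 at 87.0 and 154 CPM (0.566, 0.308 to 0.957). STRA8 gave 9 UMIs in 4 cells, at 55.9 CPM against 33.6 CPM in CST (1.66, 0.746 to 3.24). By fold, 3 genes were lower and 1 higher in UAT, against 23.8% and 17% of 8189 features. Intervals lay below 1 for 4 genes (KIT, DMRTB1, SOHLH2 and ESX1) and above it for 0, against 8.36% and 6.85% of features. The UAT library held 2 early spermatocyte-like cells besides, with 12 DMRT1 and 11 DMRTB1 UMIs in 1 of them and 0 STRA8 UMIs in both.

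Single cells of UAT held fewer of the 7 genes at once. After thinning, at least 2 of them were seen in 28.6% of UAT cells (22.8 to 34.97) and 63.8% of CST cells (59.9 to 67.5), and none in 33.9% and 10.7%. The most in a cell was 4 in UAT and 7 in CST. Within the undifferentiated cluster, at least 2 were seen in 27.0% of UAT (21.2 to 33.4) and 36.8% of CST cells (31.5 to 42.3), so there the intervals overlapped. In the CST differentiating cluster the share was 90.5%.

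Which genes met in the same thinned CST cell was described for all 21 pairs. DMRTB1 was seen in 60.2% of cells with DMRT1 (54.8 to 65.4) and in 28.0% of those without (23.1 to 33.4). ESX1 was seen in 54.8% of cells with DMRTB1 (48.9 to 60.7) and in 21.6% of those without (17.5 to 26.3). Each gene of these pairs was more often seen in cells that held the other. SOHLH1 went the other way. It was found in 28.3% of cells with DMRTB1 (23.2 to 33.8) and 44.7% of those without (39.4 to 49.99), and in 25.8% with ESX1 (20.4 to 31.9) and 43.9% without (39.0 to 48.9).

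Inside the clusters the pairs did not all keep these gaps. In the differentiating cluster of CST, DMRTB1 was seen in 75.3% of cells with DMRT1 (69.3 to 80.6) and 62.8% without (51.7 to 73.0). ESX1 was seen in 59.4% of cells with DMRT1 (52.9 to 65.7) and 60.5% without (49.3 to 70.9), where the pool had 46.0% and 26.1%. SOHLH1 was seen in 27.4% of cells with DMRTB1 (21.8 to 33.5) and 24.2% without (15.8 to 34.3), so its separation from DMRTB1 was not seen in that cluster. In the undifferentiated cluster SOHLH1 was found in 32.1% of the 56 cells with DMRTB1 (20.3 to 46.0) and 51.7% without (45.5 to 57.9). The shares there differed in the direction of the pool, but the intervals just overlapped. STRA8-positive differentiating cells, 22 in all, held ESX1 in 36.4% (17.2 to 59.3), and cells without STRA8 in 61.4% (55.7 to 66.9).

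**Figure D3:**
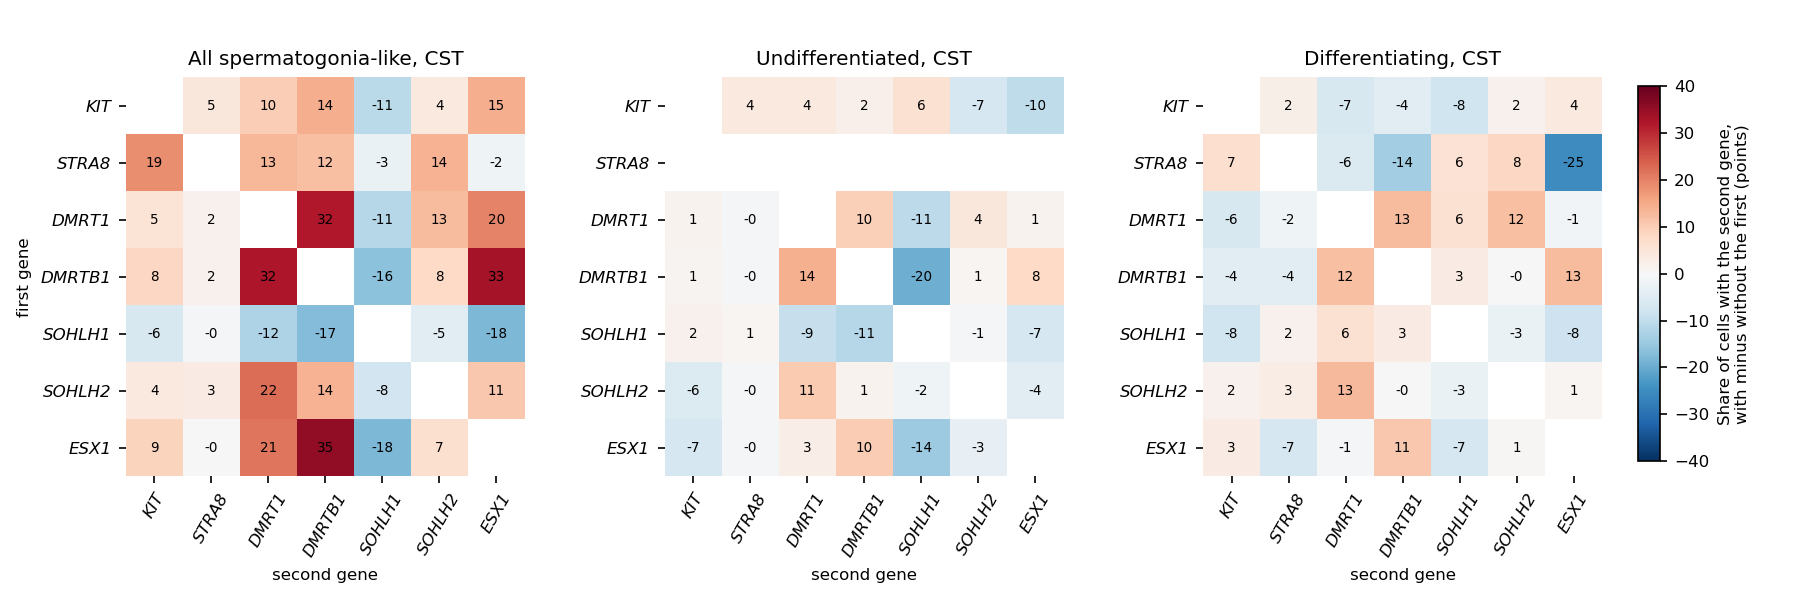
Difference, in percentage points, between the share of thinned CST cells with the second gene (columns) among cells with and without the first gene (rows), for all spermatogonia-like cells and each cluster; pairs with under 10 cells on either side are blank. The pooled block of DMRT1, DMRTB1 and ESX1 is above 0 and the SOHLH1 entries are below 0, and inside the differentiating cluster the entries between DMRT1 and ESX1 are near 0.

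UAT cells held too few positives for most pairs. DMRTB1 was seen in 25.3% of UAT cells with DMRT1 (16.4 to 36.0) and 13.5% without (8.31 to 20.2). SOHLH1 was seen in 28.9% of UAT cells with DMRT1 (19.5 to 39.9) and 29.1% without (21.7 to 37.3). KIT was found in 9 thinned UAT cells, 7 of which had DMRT1.

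Cells with a UMI of the proliferation genes MKI67 or TOP2A were 32.1% of thinned UAT and 57.1% of thinned CST spermatogonia-like cells, and 30.2% and 27.4% in the undifferentiated cluster. Both genes are on the list of differentiating markers that helped to name the clusters. In CST, DMRTB1 was seen in 62.9% of cells with such a UMI (57.7 to 67.8) and 20.9% of the others (16.3 to 26.2), and SOHLH1 in 28.7% (24.2 to 33.6) and 48.7% (42.7 to 54.8). UAT cells gave 30.6% (20.2 to 42.5) and 11.8% (7.17 to 18.1) for DMRTB1, and 18 of 72 cells (15.5% to 36.6%) and 30.9% (23.7 to 38.9) for SOHLH1. DMRTB1 was more often seen in proliferating cells of either library in this pool. In the CST differentiating cluster its shares were 74.0% (68.5 to 79.0) and 59.1% (43.2 to 73.7), with overlapping intervals. Its intervals just overlapped in the undifferentiated cluster too, at 27.3% and 13.7% in CST and 26.2% and 11.3% in UAT. SOHLH1 kept its gap in CST undifferentiated cells, at 34.1% (24.3 to 45.0) and 53.6% (47.0 to 60.2). In CST differentiating cells it had 27.0% (21.9 to 32.6) and 22.7% (11.5 to 37.8). Inside the CST differentiating cluster STRA8 was seen in 4.27% of cells with a proliferation UMI (2.23 to 7.34) and 22.7% of the 44 without (11.5 to 37.8).

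Along the germ stages of CST the genes peaked at different points. From undifferentiated to differentiating spermatogonia-like cells, SOHLH1 was the member that went down, from 350 to 151 CPM. DMRT1 went from 249 to 748 CPM, KIT from 45.3 to 142 CPM and SOHLH2 from 55.9 to 154 CPM. DMRTB1 went from 104 to 671 CPM and ESX1 from 74.8 to 493 CPM. STRA8 went from 2.52 to 33.6 CPM, and on to 58.2 CPM in the 194 early spermatocyte-like cells, its highest stage, 1.73-fold above the differentiating cells (1.34 to 2.22). At that stage the other genes had already come down. SOHLH1 fell from 151 to 13.7 CPM and KIT from 142 to 20.6 CPM. ESX1 came to 86.7 CPM, DMRT1 to 159 CPM, SOHLH2 to 47.1 CPM and DMRTB1 to 219 CPM. Elongating spermatid markers, a sign of free RNA, summed to between 2610 and 4176 CPM in these 3 stages. The levels of a gene here are shares of the UMIs of 3' ends, and are not compared between genes.

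**Figure D4:**
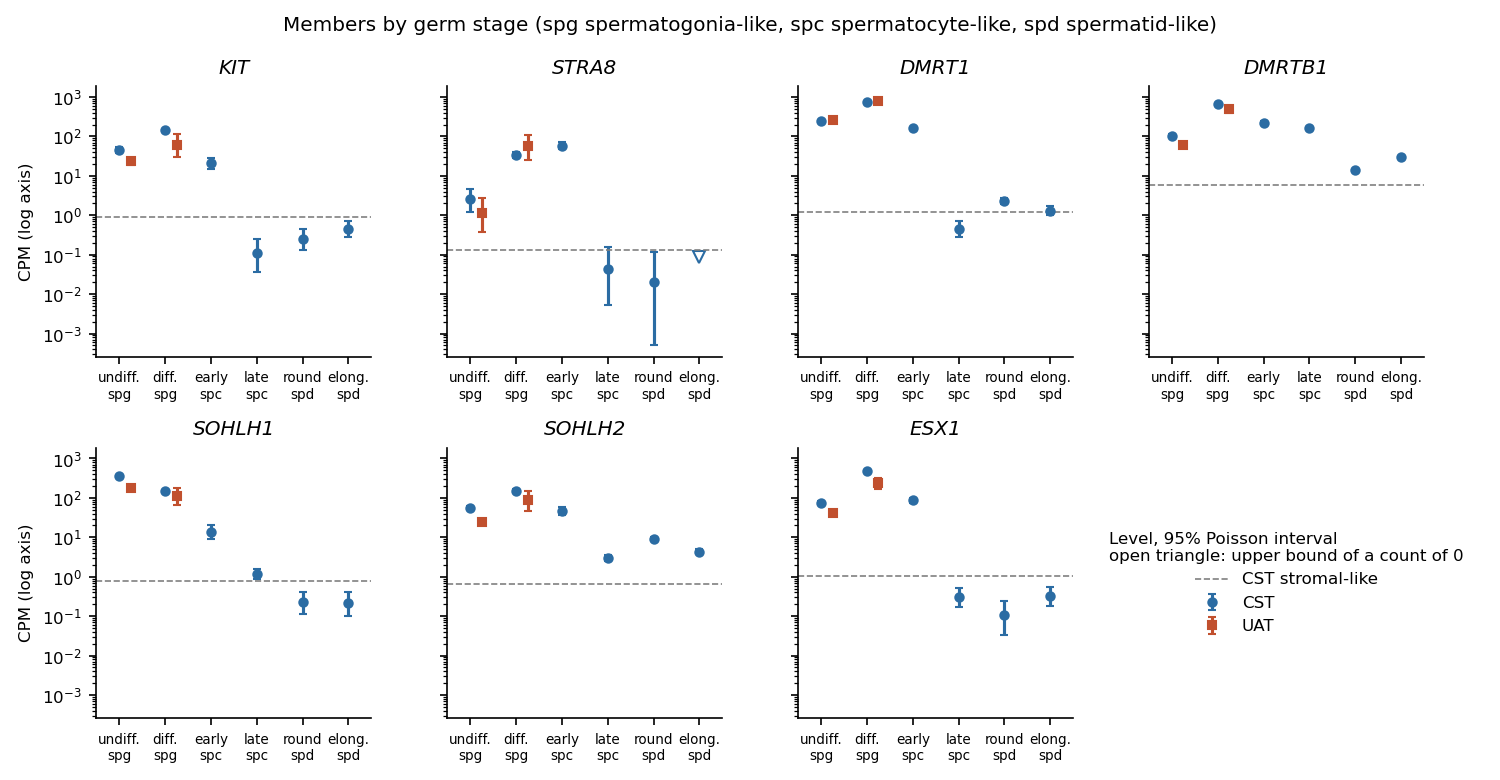
Level of each gene (CPM, log axis) in CST cells from undifferentiated spermatogonia-like to elongating spermatid-like, with exact 95% Poisson intervals, and in UAT spermatogonia-like cells; the dashed line is the level in CST stromal-like cells. KIT, STRA8, DMRT1, SOHLH1 and ESX1 drop to or near the stromal line from the late spermatocyte stage on, whereas DMRTB1 stays at 166 CPM in late spermatocyte-like cells.

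KIT, STRA8, DMRT1, ESX1 and SOHLH1 were close to background once meiosis was under way. In late spermatocyte-like cells KIT stood at 0.109 CPM, STRA8 at 0.0438 CPM, DMRT1 at 0.459 CPM and ESX1 at 0.306 CPM, each below its level in stromal-like cells of the same library (0.930, 0.133, 1.20 and 1.06 CPM). SOHLH1, at 1.18 CPM, was near its stromal-like level of 0.797 CPM. Of 2722 late spermatocyte-like cells, 5 held a KIT UMI (0.184%, 0.0597 to 0.428) and 2 a STRA8 UMI (0.0735%, 0.00890 to 0.265). DMRT1 stood at 2.31 CPM in round spermatid-like cells, with a thinned share of 0.668% (0.366 to 1.12) against 0.192% (0.0396 to 0.560) in stromal-like cells, and the highest level there, 5.56 CPM, was in the cluster led by TP53TG5.

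DMRTB1 persisted. It was at 166 CPM in late spermatocyte-like cells, 24.8% of its highest stage, and was seen in 22.7% of thinned cells (20.9 to 24.6) against 1.15% (0.684 to 1.82) in stromal-like cells. The free RNA estimate for this class was 1.19 CPM of DMRTB1. Within this class it was uneven. The clusters led by POU5F2 (757 cells) and SPATA8 (340 cells) held 308 and 302 CPM, and those led by AURKA (556 cells) and CCNA1 (1069 cells) 70.5 and 36.4 CPM. The thinned shares had the same order, 47.0%, 41.8%, 13.2% and 7.56%. DMRTB1 then stood at 14.2 CPM in round and 30.6 CPM in elongating spermatid-like cells, with thinned shares of 3.34% (2.61 to 4.20) and 5.67% (4.78 to 6.67), above the stromal-like share. Small somatic classes of CST had DMRTB1 levels whose intervals overlapped that of round cells: 18.3 CPM in 90 cells of the pericyte or vascular smooth muscle class (4.99 to 46.9), 13.5 CPM in 84 macrophage-like cells (4.38 to 31.5) and 13.5 CPM in 137 T or NK-like cells (3.67 to 34.5). Of the 45 thinned cells of the first of these, 6.67% (1.40 to 18.3) had a DMRTB1 UMI, so the low level in spermatid-like cells was not set apart from that of these classes. In elongating cells the 11 spermatid markers alone took 367380 CPM, which lowers the CPM of every other gene. Because of these later cells, 25.4% of the DMRTB1 UMIs in kept CST cells lay in spermatogonia-like cells, against 88.4% in UAT.

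SOHLH2 also remained above its stromal-like level, at a far lower level than DMRTB1. It stood at 3.06 CPM in late spermatocyte-like, 9.02 CPM in round and 4.32 CPM in elongating spermatid-like cells, against 0.664 CPM in stromal-like cells. Its thinned shares were 1.10% (0.690 to 1.66), 2.00% (1.45 to 2.70) and 0.959% (0.609 to 1.44), and in stromal-like cells 0.192% (0.0396 to 0.560). The level in round cells was 2.94-fold that in late spermatocyte-like cells (2.43 to 3.59). The small pericyte, macrophage and T or NK classes of CST held 0 SOHLH2 UMIs. Their upper bounds of 16.9, 9.95 and 12.4 CPM are too wide to set these levels apart. Reads that could belong to CCDC169, as given above, limit these low values too. Among the late spermatocyte-like clusters SOHLH2 was highest in the one led by CCNA1, at 8.24 CPM, where DMRTB1 was lowest. The other 3 held 1.29 to 2.02 CPM.

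**Figure D5:**
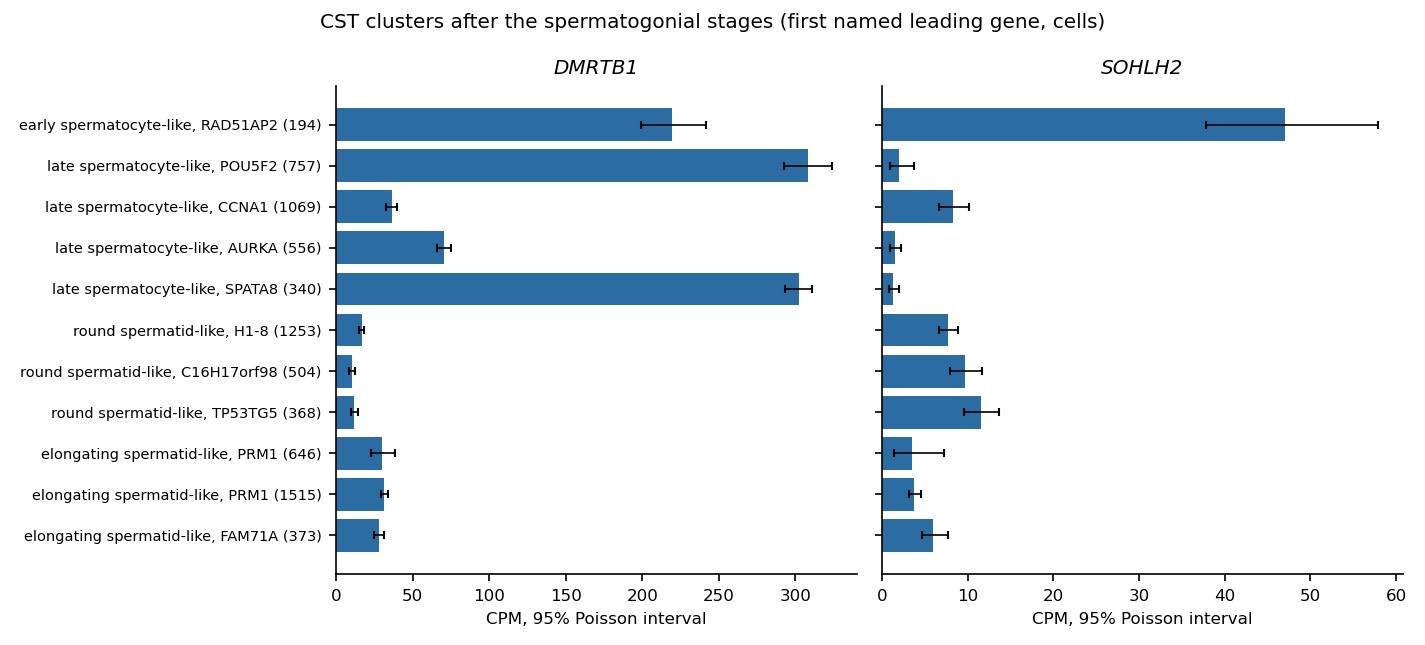
Level of DMRTB1 and SOHLH2 (CPM, with exact 95% Poisson intervals) in each CST cluster from early spermatocyte-like to elongating spermatid-like, named by its leading gene with its number of cells. DMRTB1 reaches 308 and 302 CPM in the clusters led by POU5F2 and SPATA8, and SOHLH2 falls from 47.1 CPM in early spermatocyte-like cells to 12 CPM or less in all later clusters.

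Some of the genes were also found outside the germ line. KIT was at 673 CPM in the 55 mast-like cells of UAT, as known for mast cells, and at 36.5 CPM in UAT and 20.5 CPM in CST endothelial-like cells. Spermatogonia-like cells therefore held 10.9% of the KIT UMIs in kept UAT cells and 86.2% in CST. DMRT1, which Sertoli cells are known to express, stood at 67.6 CPM in 799 Sertoli-like cells of UAT and was seen in 14.8% of the thinned ones. CST had 4 Sertoli-like cells, too few for a value. DMRT1 UMIs lay in spermatogonia-like cells for 59.0% in UAT and 89.5% in CST. SOHLH1 and ESX1 were nearly confined to them in both libraries, at 92.3% to 94.8%. STRA8 was found in no other kept UAT cell, and in CST 58.8% of its UMIs lay in spermatogonia-like cells.

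Features with the most similar profile were found by Pearson's r of log2 CPM (10 CPM added) over 23 classes of both libraries. The classes share libraries and depth, and r is a description. STRA8 was nearest BHMG1 (0.987), OTUD6A (0.986) and PRR20G (0.982), and DMRT1 nearest MAGEB1 (0.967), RHOXF2 (0.959) and MYBL2 (0.948). DMRTB1 was nearest RAD51AP1 (0.979), OIP5 (0.968) and GTSE1 (0.962). SOHLH1 was nearest RHOXF1 (0.987), PASD1 (0.983) and TAFA5 (0.974), and SOHLH2 nearest ESX1 (0.976), ZYG11A (0.974) and SKA3 (0.968). ESX1 was nearest ZYG11A (0.991), ACRC (0.986) and EXO1 (0.985). KIT had the lowest top value, with GCSAML (0.884), NPY (0.867) and ST8SIA6 (0.842).

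Other genes of differentiation and meiotic entry were taken from a list of 63, of which 61 were matched and 47 passed 20 CPM. In all spermatogonia-like cells 19 were at least 1.5-fold lower in UAT, 9 higher and 19 neither, with a median log2 ratio of -0.26. The features as a whole had 20.6% lower and 15.7% higher, with a median of -0.05. Some genes of the list, HORMAD1, MEIOC, MKI67, TOP2A, CCND2 and CCNB2 among them, were also markers that named classes or states. Of the meiotic genes, those furthest below CST in this pool were MEIOC and HORMAD1. MEIOC, needed in mouse to uphold the meiotic programme, was at 18.1 and 149 CPM (0.121, 0.0954 to 0.152), and HORMAD1, a protein of the meiotic chromosome axis, at 11.5 and 90.2 CPM (0.128, 0.0944 to 0.170). MEIOB, a meiotic recombination factor, was at 39.1 and 122 CPM, and the recombinase DMC1, under the 20 CPM mark, at 2.04 and 12.6 CPM. The genes of the synaptonemal complex did not move as one in this pool: SYCP3 had a ratio of 0.544 (0.489 to 0.603), SYCP2 of 1.16 (0.901 to 1.48) and SYCP1 of 1.57 (1.41 to 1.76). Within the undifferentiated cluster SYCP1 was lower in UAT (0.830, 0.740 to 0.930). The intervals of SYCP2 (0.786, 0.602 to 1.02) and SYCP3 (1.05, 0.913 to 1.21) held 1 there. SPO11, which makes the meiotic double-strand breaks, was under the 20 CPM mark, with 19 UAT and 13 CST UMIs. It was higher in UAT (2.83, 1.32 to 6.23), but within the undifferentiated cluster its interval held 1 (1.48, 0.680 to 3.33). PRDM9, which marks where such breaks form, had 12 and 23 UMIs over all spermatogonia-like cells (1.01, 0.457 to 2.11). SYCP1, SYCP2, SPO11 and PRDM9 were named after their values were seen. The cycle genes TOP2A (259 and 880 CPM), MKI67 (146 and 416 CPM) and CCND1 (52.9 and 176 CPM) were lower too. In undifferentiated cells the ratio was 0.533 for MEIOC (under 20 CPM), 0.261 for HORMAD1, 0.569 for MEIOB and 0.828 for CCND1 (0.677 to 1.01). In differentiating cells, 9 in UAT, it was 1.03 for MEIOC (0.745 to 1.39) and 0.784 for HORMAD1 (0.462 to 1.25). It was 0.970 for CCND1 (0.701 to 1.31) there, but MEIOB stayed lower, at 0.436 (0.225 to 0.767). DMC1 had 6 and 3 UAT UMIs in these clusters.

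Higher in UAT were NANOS2 (24.6 and 9.36 CPM; 2.63, 1.96 to 3.56) and ZBTB16 (52.0 and 22.9 CPM; 2.27, 1.87 to 2.76), which keep mouse spermatogonia undifferentiated. Within the undifferentiated cluster their intervals held 1, at 1.27 for NANOS2 (0.943 to 1.72) and 1.15 for ZBTB16 (0.946 to 1.41). ID4 and UTF1, markers of undifferentiated spermatogonia named after their values were seen, had ratios of 1.67 and 1.46 in all spermatogonia-like cells but 0.812 (0.752 to 0.877) and 0.758 (0.707 to 0.814) in that cluster. NANOS2, ZBTB16, ID4 and UTF1 are on the lists that named spermatogonia-like cells and their undifferentiated state. Their levels in these classes are thus not independent of the naming. The retinoic acid enzymes ALDH1A1 (20.8 and 2.92 CPM), ALDH1A2 (25.6 and 7.84 CPM) and CYP26B1 (17.4 and 5.73 CPM) and the KIT ligand gene KITLG (15.2 and 4.91 CPM) were also higher in UAT. These are known from somatic cells, and stromal markers were higher in the same UAT cells, as given above; their part was not tested. In the undifferentiated cluster 7 of 45 list genes were lower, 3 higher and 35 neither, with a median log2 ratio of -0.13, against 11.7% lower, 7.3% higher and a median of -0.01 for all features there, so these counts were near the background. HORMAD1 (7.74 and 29.7 CPM), CCND2 (95.5 and 185 CPM), DNMT3L (14.5 and 32.2 CPM) and CCNB2 (100.4 and 178 CPM) were among the lowest there. MKI67 had a ratio of 1.37 (1.20 to 1.56) in that cluster, against 0.352 in the whole pool. TOP2A stayed lower in UAT there, at 0.806 (0.738 to 0.879), against 0.294 in the whole pool, so the proliferation genes did not go one way.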

How the data were processed

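Values are UMI counts per feature and barcode as deposited, whole and without normalisation. The version of Cell Ranger is 5.0.0 per the file headers but 3.0.1 per the submitters' processing notes, which also list the mouse build mm10. Feature names are macaque RefSeq symbols, so no coordinates or sequences are given. A RefSeq table renamed 721 of 11526 features that carry a LOC name. The members and gene lists were chosen with earlier results of these data known.

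Barcodes with at least 500 genes were kept (12352 UAT, 15001 CST). Doublets were scored against simulated pairs (2 per cell, 30 components), and 0.8% per 1000 barcodes, 1221 and 1800 cells, were removed. The libraries were clustered jointly with the 7 members left out (2000 variable genes, 40 components, 15 neighbours; Leiden, resolution 1; finer clusters at 2), without batch integration, in Python 3.11.15 with numpy 2.4.6, scipy 1.17.1, scikit-learn 1.9.0, umap-learn 0.5.12, igraph 0.11.9, leidenalg 0.10.2 and matplotlib 3.10.9. Clusters stayed unnamed if few markers were found, leading genes went against the name, lineages scored alike, or shallow cells had no leading marker. These were 66 UAT and 1924 CST cells, the latter with a median of 1060 UMIs. Counts were summed per class and given as CPM of the class total. Ratios have exact conditional binomial, levels exact Poisson and shares Clopper-Pearson 95% intervals; a count of 0 allows 3 of the total, and a call needed 10 UMIs in either library. On Poisson counts simulated from the CST profile, at the depth of the spermatogonia-like class, 95.1% of intervals covered the ratio set for 7585 unchanged genes. All genes changed 2-fold or 4-fold fell on the right side of 1. For the undifferentiated class, 95.6% of intervals covered the ratio set for 7646 unchanged genes. Such counts follow the model behind the intervals, so they check the calculation and not the spread between cells or libraries.

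All 7 members are named in the comparisons of UAT with CST; STRA8 has no ratio where UAT had 0 UMIs, and pairs and later stages are given for some members. From the list of other genes, 6 genes at either end, ranked by the bound of their interval that lies closer to 1 and with at least 30 UMIs in the higher library, are named (in the undifferentiated cluster some of them), plus MKI67, TOP2A, SYCP3, ZBTB16 and NANOS2. Like features are the 3 with the highest r among those at 50 CPM or more in a class. Clusters of later stages were singled out after their values were seen. Free RNA was estimated from stromal markers and the profile of the library. Alternatives changed the gene minimum, doublet removal, clustering, thinning, scaling and free RNA.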

Additional observations from a re-analysis of the deposited data

How the results depend on the processing

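The count of 6 genes at least 1.5-fold lower and 0 higher in UAT was the same under all 11 alternatives. The ratio of DMRT1 turned to 1.03 when only undifferentiated cells were taken; in the settings over all spermatogonia-like cells it lay between 0.531 and 0.575. SOHLH1 lay between 0.715 and 0.892 over those settings, the highest without doublet removal, DMRTB1 between 0.182 and 0.255 and KIT between 0.239 and 0.300. In the list of other genes, a minimum of 50 CPM left 4 higher of 32 that passed, where 9 were higher at 20 CPM; 16 were then lower. With free RNA taken out, 18 were lower and 8 higher. Of 77 member ratios under the alternatives, 65 stayed within counting error of the reported value, 11 moved with the direction kept and 1 turned; of 42 thinned shares under another depth or draw 18 stayed and 24 moved, of 42 pair shares at a deeper thinning 14 stayed and 28 moved, and of 77 levels in CST stages, with doublets kept or free RNA taken out, 43 stayed and 34 moved.

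The split into undifferentiated and differentiating cells rested on the clustering: the differentiating cluster held 9 UAT and 339 CST cells, but 0 and 323 with each library clustered alone, 128 and 703 with a minimum of 200 genes, and was not formed at resolution 0.5. Ratios in the undifferentiated cluster under 6 other clusterings were added after seeing the data. There SOHLH1 lay between 0.495 and 0.549 and DMRT1 between 0.999 and 1.18, with 4 of 6 intervals above 1. At resolution 2 these take only the UTF1-led cluster; in the WBSCR22-led cluster DMRT1 had 0.767 (0.619 to 0.944). STRA8 reached 1.39 (0.562 to 3.65) when the libraries were clustered apart. In that setting all 303 UAT spermatogonia-like cells stood against the 585 undifferentiated CST cells, since UAT formed no differentiating cluster. Where doublets were kept there was no early spermatocyte-like class, so its levels have no value there. No paired analysis was possible because each position had 1 library and no result comes from a test. Depth limits STRA8 most, at 14 UMIs in UAT spermatogonia-like cells.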
